A study of Mus musculus with 10 samples.

Results

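Glucose and fructose entry into glycolysis was followed in the livers of 10 mice through 8 genes: Slc2a2, Gckr, Gpi1, Pfkl, Pfkfb1, Pklr, Khk and Tkfc. These 8 genes, of 22911 with a named probe on the array and of 15090 that passed the filter on dim probes, were selected by name, with their difference between ethanol and control livers already known. That difference is therefore given below as a description, with no test. All 8 passed the filter, and all of their 11 probes were well above background on each of the 10 arrays, so none entered through 1 group alone. No probe was saturated.

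The mice were male C57BL/6J +/+ animals, an inbred laboratory strain, bought at 7 weeks of age and kept 1 week on a standard diet. All of them then ate a 60% high-fat diet (HFD) for 4 months. In the HFD ethanol group ethanol was added to the drinking water for the last 3 months, at a daily intake of 5 g per kg of body weight during week 1 and of 10 g per kg from then on, and the HFD control group had none. RNA of 5 livers per group was labelled with Cy3 and hybridised to 1-colour Agilent arrays, 1 mouse per array, and no group on a standard diet was analysed here. The comparison addresses what ethanol in the drinking water does to gene expression in the liver of mice on a fat-rich diet.

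Hepatocytes take up glucose and fructose from portal blood and burn them in glycolysis, store them as glycogen or turn them into fat. Glucose is phosphorylated, isomerised to fructose 6-phosphate and phosphorylated again by phosphofructokinase, the main control point of the pathway. Fructose bypasses that point: ketohexokinase phosphorylates it, the product is split, and triokinase phosphorylates the glyceraldehyde. Both routes meet at the triose phosphates and leave through pyruvate kinase, and several of their genes are switched on in the fed liver by the carbohydrate response factor encoded by Mlxipl.

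On each array 55.5% to 59.1% of the spots exceeded background clearly, and precision is limited by having 5 arrays a group. The groups were spread unevenly over 3 slides. Ethanol replicate 4 shared slide 1 with control replicates 4 and 5, and the other ethanol replicates shared slide 3 with control replicate 2. Slide 2 carried controls alone (replicates 1 and 3), so slide and group cannot be fully told apart. Columns on the slide were uneven too, at 4, 2, 3, 4 and 4 for control replicates 1 to 5. They were 3, 1, 1, 3 and 2 for ethanol replicates 1 to 5, so column and group cannot be fully told apart either. All 10 hepatocyte markers (among them Alb, Ttr and Cps1) were well above background on every array, and their summed signal ran from 3717 to 5027 times the array's 75th percentile in control and from 4101 to 4429 times in ethanol livers. Of the markers of other cells, Krt7, Epcam, Cd8a, Cd79a, Adipoq, Retn and Plin1 did not pass the filter. Because whole liver was measured, fewer cells of a type and less RNA per cell cannot be told apart.

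Of the 8 genes 4, Pklr, Gpi1, Tkfc and Khk, were higher in every ethanol liver than in every control liver. Such a separation upwards was seen in 1.94% of all genes tested (3.05% in either direction), and nothing is read from the 4, since they were chosen on this contrast. The other 4, Pfkl, Slc2a2, Pfkfb1 and Gckr, overlapped between the groups. Values below are log2 signals relative to the 75th percentile of the array, differences are ethanol minus control on that log2 scale, and SE is the moderated standard error of limma. The levels of different genes come from different probes and are not compared with each other. Over the 8 genes the median difference was 0.49, beside 0.03 over all 15090 genes tested.

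**Figure D1:**
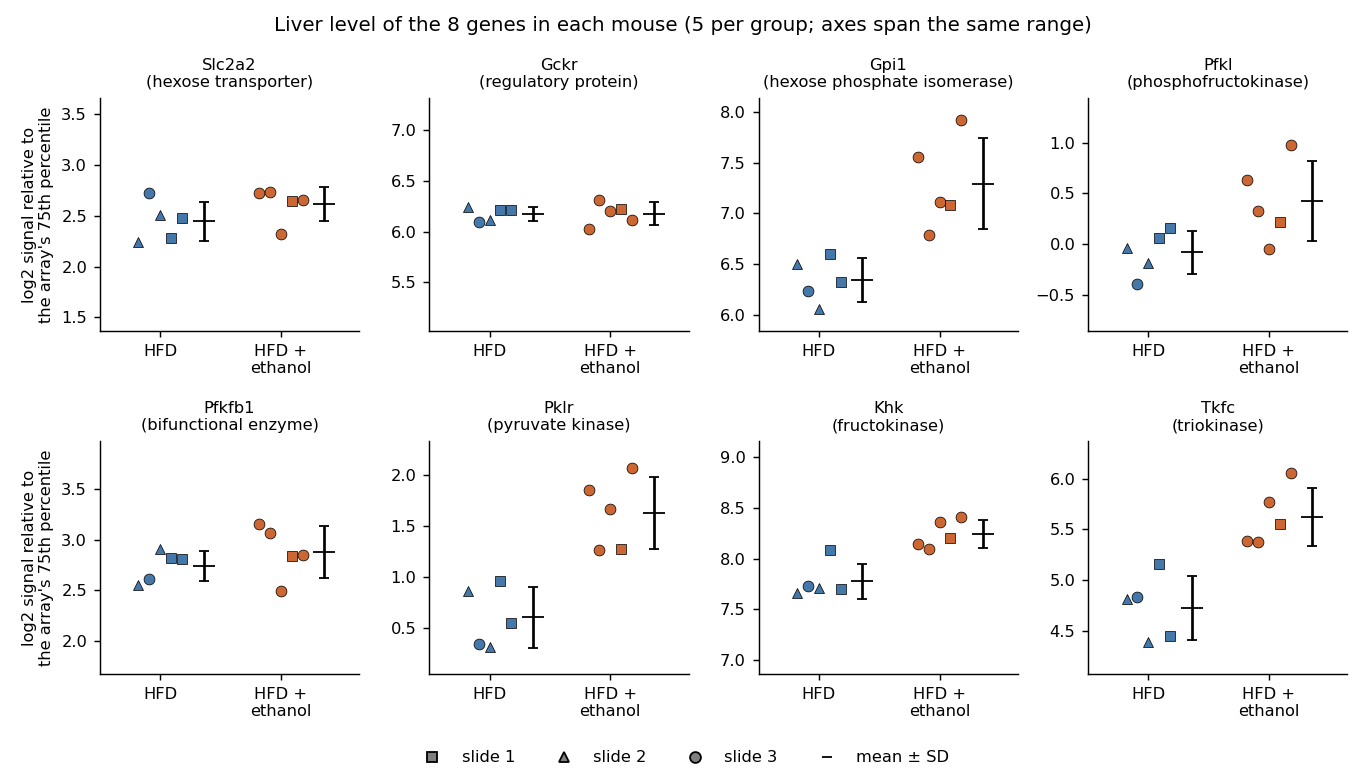
Log2 signal over the 75th percentile of its array (vertical axis, same span in each panel) of the 8 genes in each of the 5 HFD (blue) and 5 HFD with ethanol (orange) livers. Marker shapes give the slide, and bars give the mean ± SD. Pklr, Gpi1, Tkfc and Khk separate the groups, and Gckr has nearly the same mean in both.

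Pklr encodes the pyruvate kinase of liver and red cells, which makes pyruvate and ATP in the last step of glycolysis. Its liver promoter is the textbook case of a carbohydrate response element, and for that reason its sequence is shown beside that of Khk, the other of the 8 genes with a match to a motif searched. The RefSeq promoter table (GRCm38.p6) held 12 windows for the 8 genes, each from 250 bases before to 50 after an annotated start. In the windows below, written 5′ to 3′ on the gene's strand, capitals mark the match. The carbohydrate response element was searched as CANGNG, any 5 bases and CNCNTG, and the E-box as CACGTG.
Pklr, second of 2 annotated starts, chr3:89136373-89136672, plus strand: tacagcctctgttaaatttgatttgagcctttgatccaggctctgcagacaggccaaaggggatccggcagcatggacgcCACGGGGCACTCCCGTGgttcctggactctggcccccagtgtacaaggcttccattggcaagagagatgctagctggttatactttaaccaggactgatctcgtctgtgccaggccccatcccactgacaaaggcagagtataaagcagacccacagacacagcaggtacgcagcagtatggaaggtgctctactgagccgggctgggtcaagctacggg
Khk, chr5:30921309-30921608, plus strand: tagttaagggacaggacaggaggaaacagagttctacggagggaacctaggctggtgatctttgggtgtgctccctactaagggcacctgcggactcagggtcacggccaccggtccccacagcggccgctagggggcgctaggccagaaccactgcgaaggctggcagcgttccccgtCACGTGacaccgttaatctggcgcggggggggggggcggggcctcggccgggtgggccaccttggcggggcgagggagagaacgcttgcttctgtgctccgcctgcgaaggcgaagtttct

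The Pklr match, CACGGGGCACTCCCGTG, began at position -170 from the annotated start, and no other of the 12 windows held that motif. The motif as searched, with its open positions, reads the same on both strands and was found in 0.557% of the 32851 windows of the table. The E-box also reads the same on both strands, lay at position -71 in Khk, and was found in 7.15% of all windows. The sterol response motif TCACNCCAC, searched on both strands, had no match in the 12 windows and was found in 1.24% of all windows. A match describes the letters of the window, and binding was not measured.

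The Pklr signal was 0.86, 0.34, 0.31, 0.96 and 0.54 in control replicates 1 to 5, and 1.86, 1.27, 1.67, 1.28 and 2.07 in ethanol replicates 1 to 5. All 5 ethanol livers lay above the highest control, by at least 0.31. The means were 0.60 ± 0.30 for control and 1.63 ± 0.36 for ethanol (SD, n = 5 each), a difference of 1.03 ± 0.19 (SE), or 2.04-fold. It was 0.53 within slide 1, where ethanol replicate 4 was the only ethanol liver. Within slide 3, where control replicate 2 was the only control, it was 1.38. Whether the difference varied between slides was not tested. With the slide as a block the difference was 0.99. Pklr was chosen with this difference known, and 0.775% of the 15090 genes tested had a higher one.

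Gpi1 encodes glucose phosphate isomerase, which interconverts glucose 6-phosphate and fructose 6-phosphate. Its signal was 6.50, 6.24, 6.05, 6.60 and 6.33 in the control livers and 7.56, 6.79, 7.11, 7.09 and 7.92 in the ethanol livers, in replicate order. The lowest ethanol liver lay above the highest control, although the spread was wider with ethanol (SD 0.45 against 0.21, n = 5 each). The difference was 0.95 ± 0.20 (SE), or 1.93-fold, and the other 2 probes of the gene gave 0.98 and 1.01, each with no overlap between the groups. Within slide 1 it was 0.62, within slide 3 it was 1.11, and with the slide as a block 0.89.

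The fructose branch was represented by Khk and Tkfc. Khk encodes ketohexokinase (fructokinase), and Tkfc, formerly Dak, encodes triokinase, which phosphorylates the glyceraldehyde made from fructose. The Tkfc signal was 4.81, 4.83, 4.39, 5.16 and 4.45 in control and 5.38, 5.38, 5.77, 5.55 and 6.05 in ethanol livers, and all ethanol values lay above the control values. Its means were 4.73 ± 0.31 and 5.63 ± 0.29 (SD, n = 5 each), a difference of 0.90 ± 0.18 (SE), or 1.86-fold. The difference was 0.74 within slide 1, 0.81 within slide 3 and 0.78 with the slide as a block.

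The Khk signal was 7.66, 7.73, 7.71, 8.08 and 7.70 in control and 8.15, 8.10, 8.37, 8.20 and 8.41 in ethanol livers. The groups only just separated, since control replicate 4 stood apart from the other controls and the lowest ethanol liver was only 0.01 above it. The means were 7.78 ± 0.17 and 8.24 ± 0.14 (SD, n = 5 each), and the difference was 0.47 ± 0.10 (SE), or 1.38-fold. It was 0.31 within slide 1 and 0.52 within slide 3. Without control replicate 4 the difference was 0.54.

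**Figure D2:**
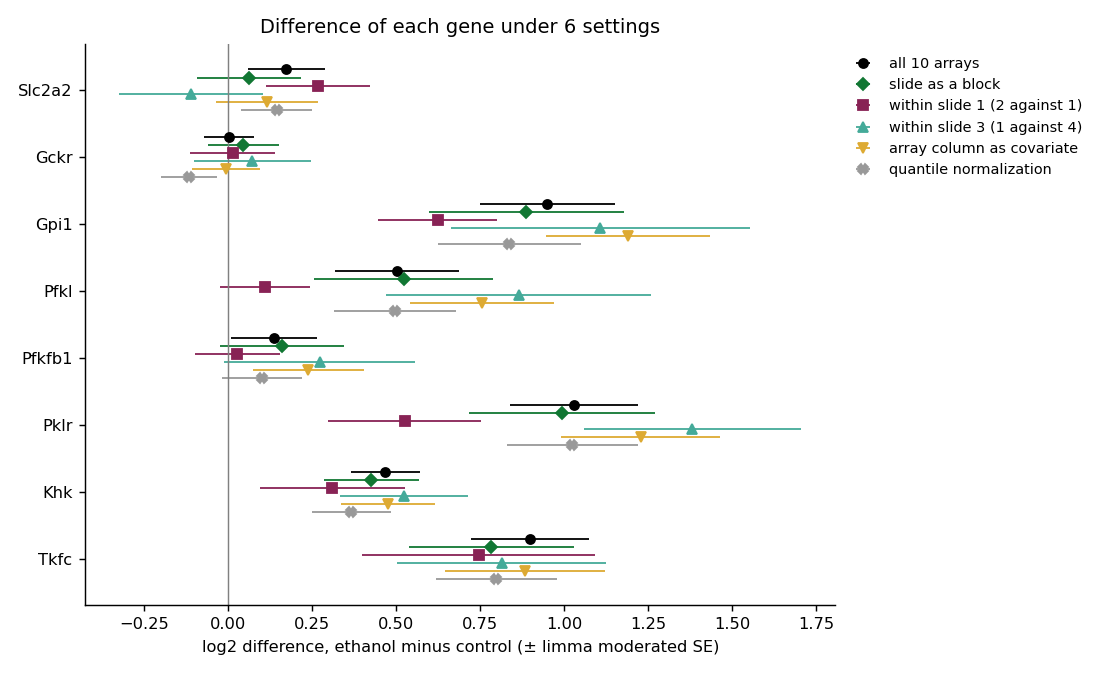
Log2 difference of each of the 8 genes, ethanol minus control (horizontal axis, bars ± moderated SE), with all 10 arrays and under 5 other settings. Pklr, Gpi1, Tkfc and Khk lie above 0 in all 6 settings, Pklr runs from 0.53 within slide 1 to 1.38 within slide 3, and Gckr lies on both sides of 0.

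Control of the phosphofructokinase step was represented by Pfkl, the liver subunit of the enzyme, and Pfkfb1, the liver form of the bifunctional enzyme that makes and removes its activator fructose 2,6-bisphosphate. The Pfkl signal was -0.04, -0.39, -0.19, 0.06 and 0.16 in control and 0.63, 0.33, -0.04, 0.22 and 0.97 in ethanol livers. All but 1 of the 5 ethanol livers lay above the highest control, and ethanol replicate 3 lay among the controls. The difference was 0.50 ± 0.18 (SE), or 1.42-fold, with 0.11 within slide 1 and 0.86 within slide 3. Without ethanol replicate 5, the highest liver, it was 0.37. Pfkfb1 was at 2.74 ± 0.15 in control and 2.88 ± 0.25 in ethanol livers (SD, n = 5 each). Its difference of 0.14 ± 0.13 (SE) was smaller than the SD of either group, and its dimmer probe gave 0.21. Leaving out 1 array at a time gave 0.07 (without ethanol replicate 1) to 0.23 (without ethanol replicate 3).

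Slc2a2 encodes GLUT2, the low-affinity transporter through which glucose and fructose cross the hepatocyte membrane. Its signal was 2.24, 2.72, 2.51, 2.28 and 2.48 in control and 2.73, 2.73, 2.33, 2.65 and 2.66 in ethanol livers, so the ranges overlapped over most of their length. The difference was 0.17 ± 0.11 (SE), with the opposite sign within slide 3 (-0.11). Gckr encodes a regulatory protein of glucose phosphorylation in the hepatocyte. It was at 6.18 ± 0.07 in control and 6.18 ± 0.11 in ethanol livers (SD, n = 5 each), and the difference was 0.0020 ± 0.07 (SE). With quantile normalization in place of the 75th percentile the Gckr difference was -0.12, so its sign depends on the scaling.

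Some animals were high or low in several of the 8 genes. Ethanol replicate 5 had the highest ethanol value of 5 genes (Pklr, Gpi1, Tkfc, Khk and Pfkl), and ethanol replicate 2 the lowest of 4 of them (Pklr, Gpi1, Tkfc and Khk). Among the controls, replicate 4 was the highest in those same 4 genes. Deviations of each array from its group mean do not contain the difference on which the genes were chosen, and their correlation was tested over the 10 mice for all 28 pairs of genes by an exact two-sided permutation within groups (14400 arrangements, Benjamini-Hochberg over the 28 pairs).

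Pklr and Gpi1 varied together within the groups by Pearson's r but did not pass by rank, with Pearson's r = 0.908 (exact permutation p = 0.000625, adjusted p = 0.0175) and Spearman's rho = 0.915 (exact permutation p = 0.00201, adjusted p = 0.0564). Without the 2 livers farthest from the median of Pklr, r was 0.856, and with the slide removed as well as the group it was 0.911. No other pair passed after adjustment. Tkfc and Khk, both of the fructose branch, had r = 0.834 (exact permutation p = 0.00472, adjusted p = 0.0661) and rho = 0.721 (exact permutation p = 0.0285, adjusted p = 0.354), and r was 0.541 without the 2 livers farthest from the median of Tkfc. Gpi1 and Pfkl, the isomerase and the next enzyme of the route, had r = 0.768 (exact permutation p = 0.0332, adjusted p = 0.31) and rho = 0.697 (exact permutation p = 0.0619, adjusted p = 0.433), and r was 0.633 without the 2 farthest livers. The 28 values of r ran from -0.488 (Tkfc and Pfkfb1) to 0.908, 14 were above 0, and the median was 0.0011. Gckr had r from -0.46 to 0.01 with the other 7 genes, none of them past the threshold. All these genes were read from the same arrays, so they share labelling, hybridisation and scaling.

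**Figure D3:**
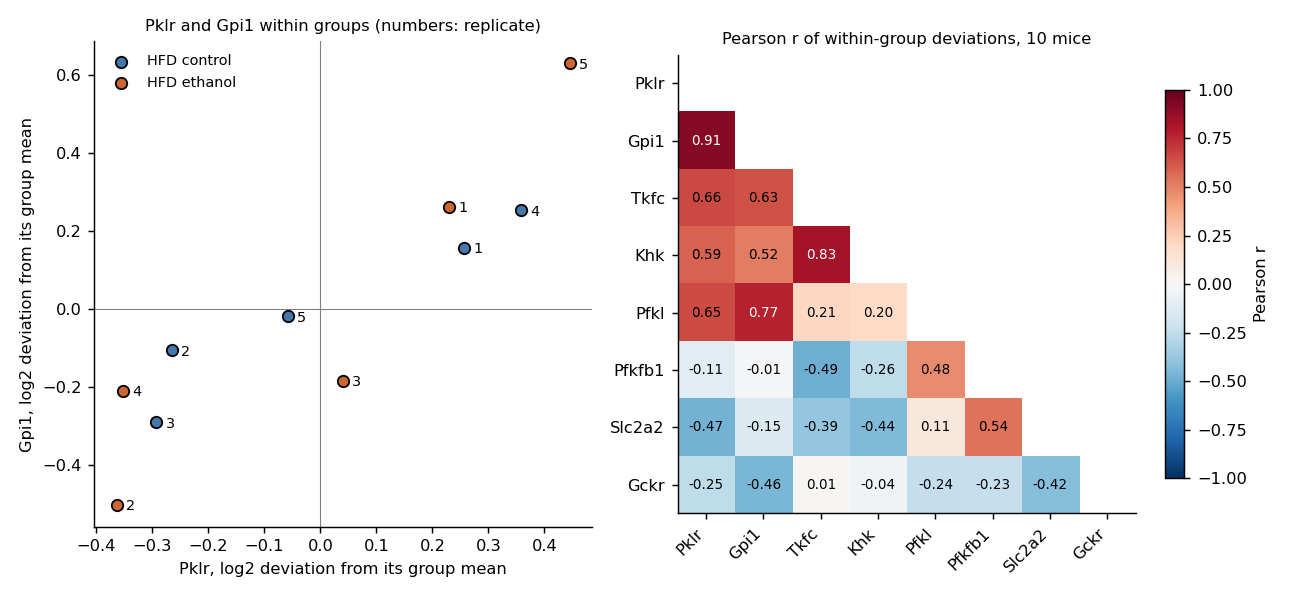
Left, log2 deviation of Pklr (horizontal) and Gpi1 (vertical) from their group means in the 5 control (blue) and 5 ethanol (orange) livers, numbered by replicate. Right, Pearson's r of such deviations for the 28 pairs of the 8 genes, where Pklr with Gpi1 has the highest value at 0.91.

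Of the 15080 other genes with a value on every array, those most like the mean within-group deviation of the 8 genes (each scaled to unit SD) were Rhox5, Eno1b, Me1, Fam241a, Erbb3, Tmed3, Tesc and Lss, in that order. Their Pearson's r ran from 0.897 to 0.965 over the 10 arrays, which describes the top of a long ranking. Me1, the malic enzyme that supplies NADPH for fatty acid synthesis, had r = 0.922. Eno1b is a near copy of the enolase gene Eno1, whose own r was 0.875, and their probes may share signal. Each of the 8 genes was also set against the mean of the other 7, which leaves the gene itself out. There r was 0.74 for Gpi1, 0.727 for Pfkl, 0.647 for Pklr, 0.458 for Tkfc and 0.431 for Khk, and it was -0.02 for Pfkfb1, -0.31 for Slc2a2 and -0.40 for Gckr.

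The other genes of hexose metabolism and its regulation came from 10 lists, chosen with earlier results of these data known. Their counts and shares, here and below, are therefore descriptions, and no excess is read from them. The lists held 86 genes, of which 83 were tested. None passed in limma at an adjusted p of 0.05 in either direction, where 3 of all genes tested (0.0199%) passed, 0.0133% higher and 0.00663% lower with ethanol. At an unadjusted p under 0.05 there were 20 of the 83, beside 13.3% of all genes tested. Of the 83 genes 57 had a higher mean with ethanol, or 68.7% beside 56.4% of all genes, and their median difference was 0.10. The groups did not overlap, with ethanol higher, for 3 of the 83 (Gpd1, Tm6sf2 and Mlx, named after their values were seen), beside 1.94% of all genes.

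**Figure D4:**
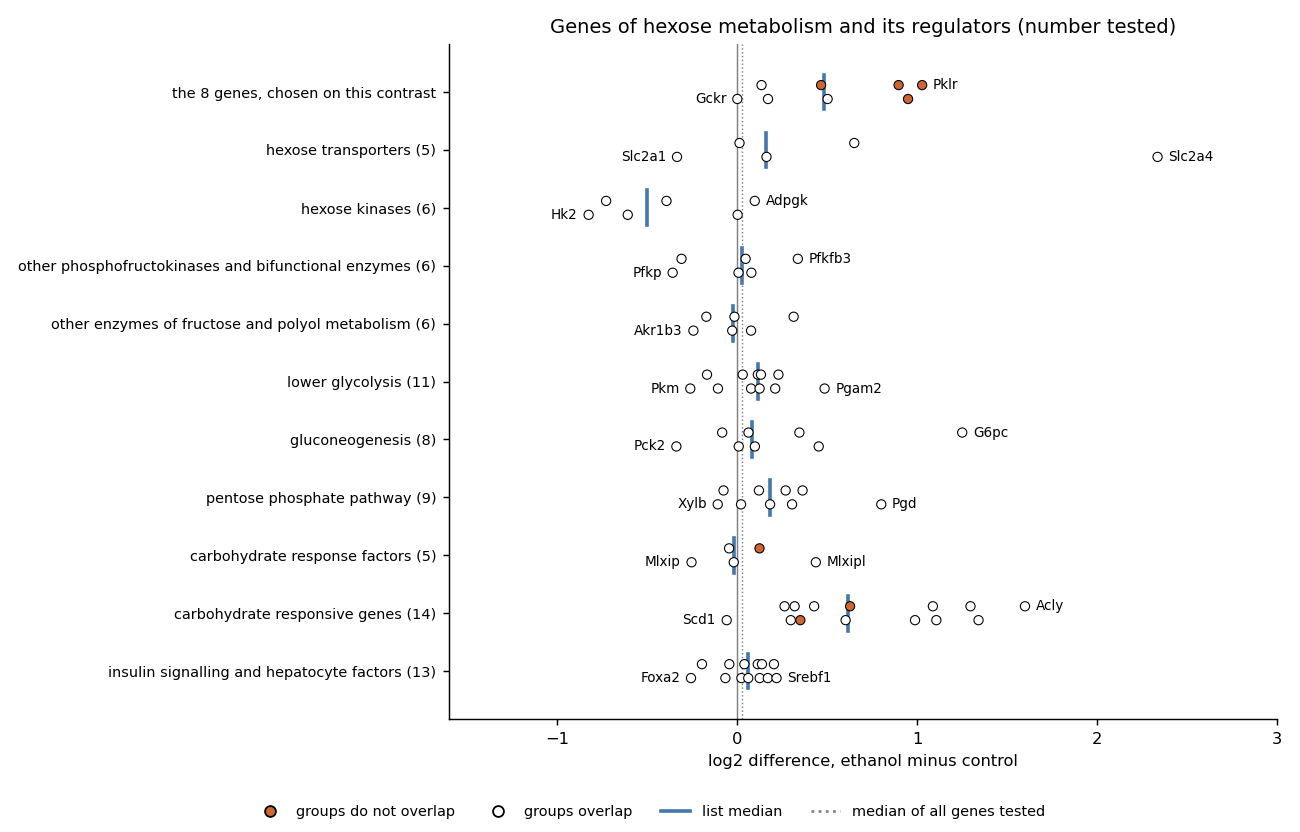
Log2 difference, ethanol minus control (horizontal axis), of the 8 genes and of 83 other genes in 10 lists. Each circle is a gene, filled where the groups do not overlap, and blue bars are list medians. Carbohydrate responsive genes lie furthest to the right as a list (median 0.62), hexose kinases furthest to the left (median -0.50), and Slc2a4 has the highest difference of any listed gene (2.34).

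Besides GLUT2, 5 hexose transporter genes were tested and none passed, with the highest differences in Slc2a4 and Slc2a5. Slc2a4 encodes GLUT4, the insulin-responsive transporter of muscle and fat. It was at -4.19, -3.80, -3.07, -3.34 and -2.94 in control and at -3.18, -1.89, -0.40, -0.32 and 0.12 in ethanol livers. Of the ethanol livers 4 lay above all controls, and ethanol replicate 1 lay among the controls. The difference was 2.34 ± 0.58 (SE, adjusted p = 0.196), with 2.82 within slide 1, 2.46 within slide 3 and 1.27 with normexp background correction. Of the 5 adipocyte markers, Adipoq, Retn and Plin1 did not pass the filter on dim probes in either group. Lep and Cidec were well above background on all 10 arrays, with differences of 0.13 and 0.05. Lep was at 0.20 in control and 0.33 in ethanol livers, and Cidec at 6.13 and 6.18, so most of their summed signal was Cidec. The sum ran from 58.6 to 87.5 times the 75th percentile in control and from 37.6 to 123 times in ethanol livers. Which cells gave the Cidec signal was not tested, nor was the part of adipocytes in the Slc2a4 difference. Slc2a5, which encodes the fructose transporter GLUT5, was at 1.10 ± 0.42 in control and 1.75 ± 0.35 in ethanol livers (SD, n = 5 each), a difference of 0.65 ± 0.22 (SE, adjusted p = 0.299), or 0.24 with the array's column on the slide as a covariate.

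Of 6 hexose kinase genes 4 were lower in the mean with ethanol, none passed, and the median difference was -0.50. Hk2, a hexokinase of muscle and growing cells, had -0.82 ± 0.38 (SE, adjusted p = 0.379), with -0.37 after normexp background correction, -0.41 within slide 3 and -0.08 with the column as a covariate.

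Other phosphofructokinases and bifunctional enzymes had a median difference of 0.03, with 4 of 6 higher and none past the threshold. Pfkp, the platelet subunit, had -0.36 ± 0.23 (SE), which ran from -0.56 to 0.20 over the alternatives. Pfkfb3 had 0.34 ± 0.24 (SE), from 0.17 within slide 1 to 0.64 within slide 3 and 0.22 without ethanol replicate 2. Of 6 other genes of fructose and polyol metabolism 2 were higher, 4 lower and none passed. Akr1b3, an aldose reductase that makes sorbitol from glucose, had -0.24 ± 0.10 (SE, adjusted p = 0.35), 0.07 by its second probe and -0.05 within slide 3.

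Lower glycolysis had 8 of 11 genes higher, none past the threshold and a median difference of 0.12. Pkm, the pyruvate kinase of most other tissues, had -0.26 ± 0.18 (SE, adjusted p = 0.519), and its second probe gave 0.33, so the direction of Pkm depends on the probe. It was -0.14 without ethanol replicate 2 and 0.09 with the column as a covariate. Pgam2, the muscle phosphoglycerate mutase, was dim, at -4.07 in control and -3.58 in ethanol livers. Its difference was 0.49 ± 0.21 (SE), or 0.14 with the slide as a block and -0.03 within slide 3. After normexp background correction it was 0.16 with quantile normalization and 0.21 with the 75th percentile. Gluconeogenesis, which runs the other way through the same intermediates, had 6 of 8 genes higher and none past the threshold. G6pc, the catalytic subunit of glucose 6-phosphatase, was at 4.20 ± 0.31 in control and 5.45 ± 1.20 in ethanol livers (SD, n = 5 each), with ethanol replicate 5 at 7.32, and the difference was 1.25 ± 0.49 (SE, adjusted p = 0.328). Without that liver it was 0.78, and within slide 1 it was 0.80. Slc37a4, which carries glucose 6-phosphate to that enzyme, had 0.45 ± 0.14 (SE, adjusted p = 0.26), or 0.25 within slide 3. In the pentose phosphate pathway 7 of 9 genes were higher and none passed. Pgd, which makes NADPH, had 0.80 ± 0.36 (SE), or 0.51 without ethanol replicate 5. Tkt, a transketolase, had 0.36 ± 0.23 (SE), or 0.20 without that liver.

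Carbohydrate responsive genes, most of them for fat synthesis, were higher in 13 of 14 cases, with none past the threshold and a median difference of 0.62. Acly, which makes cytosolic acetyl-CoA from citrate, was at 4.13 ± 0.39 in control and 5.73 ± 1.08 in ethanol livers (SD, n = 5 each), a difference of 1.60 ± 0.46 (SE, adjusted p = 0.232). Elovl6, a fatty acid elongase, had 1.34 ± 0.40 (SE, adjusted p = 0.247). Both overlapped between the groups and were highest in ethanol replicate 5, the liver that was also highest in Pklr and Gpi1. Over the alternatives Acly ran from 1.21 without that liver to 2.18 with the column as a covariate. Elovl6 ran from 1.01 to 1.77 in the same 2 settings. Txnip, a thioredoxin-binding protein whose gene responds to glucose, had 0.30 ± 0.36 (SE, adjusted p = 0.731), with -0.02 without ethanol replicate 5, 0.50 without ethanol replicate 3, 0.49 without ethanol replicate 4, -0.59 within slide 1 and 0.86 within slide 3.

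Of the 5 carbohydrate response factors 2 were higher, 3 lower and none passed. Mlxipl encodes ChREBP, which binds carbohydrate response elements together with the Mlx protein. It was at 4.87 ± 0.16 in control and 5.31 ± 0.33 in ethanol livers (SD, n = 5 each), a difference of 0.44 ± 0.15 (SE, adjusted p = 0.309), while its second probe gave -0.01. Within slide 3 the difference was 0.66. Mlxip, a relative of Mlxipl, had -0.25 ± 0.16 (SE), with -0.12 without control replicate 5, -0.17 without ethanol replicate 2 and -0.0069 with the column as a covariate. Among 13 insulin signalling and hepatocyte factors none passed, and the list median was 0.06. Foxa2, a hepatocyte transcription factor, had -0.26 ± 0.24 (SE), with -0.11 without ethanol replicate 5, -0.15 without control replicate 4 and -0.43 without ethanol replicate 2. Srebf1, which encodes a regulator of fat synthesis, had 0.22 ± 0.26 (SE), with 0.05 without ethanol replicate 4 and 0.46 without ethanol replicate 1.

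The marker lists of other cells were measured beside these genes, and no marker passed the threshold. Stellate cell markers were lower in 6 of 8 cases, with a summed signal from 107.2 to 139.4 times the 75th percentile in control and from 98.0 to 118 times in ethanol livers. Kupffer cell and macrophage markers were lower in 6 of 10 (64.4 to 111 in control and 58.8 to 117 in ethanol livers), endothelial markers in 5 of 8 (30.0 to 38.6 and 31.3 to 35.8), and lymphocyte markers in 3 of 6 (3.92 to 5.68 and 4.32 to 6.20). Bile duct markers were lower in 3 of 4 (8.93 to 27.2 and 3.35 to 16.2), red cell markers in 3 of 4 (207 to 428 and 219 to 500), and adipocyte markers in 0 of 2. Spp1 was at 3.70 in control and 2.61 in ethanol livers and Sox9 at -0.83 and -1.49. Krt19 and Cldn4 were dimmer, so most of the bile duct sum was Spp1. Cldn4 was the bile duct marker with a higher mean, by 1.18. Which cells gave the Spp1 signal was not tested. Hepatocyte markers were higher in 6 of 10, with a median difference of 0.04. The part of cell composition in the differences of the 8 genes was not tested.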

How the data were processed

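The authors deposited 1 scanner table per array of linear spot intensity, per the file headers, which name Feature Extraction 10.7.3.1 and an mm9 array design. The authors also deposited log2 values. After centring each probe, these had an r of 1 with the scaled intensities on each array, over 11029 bright probes. An offset between arrays would not show in that r. Group differences from the deposited values were slightly lower, with 1.016 beside 1.028 for Pklr and -0.010 beside 0.0020 for Gckr. The centring per probe of the deposited values is unknown and cancels in differences. Column medians of that table ran from -0.12 to 0.08. Per the labels' protocols, 150 ng of RNA per liver was amplified, and the arrayed mice were drawn at random from 2 groups of 10.

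After removal of control spots and flagged outliers, processed intensities were scaled to each array's 75th percentile (279.9 to 387.4 signal units), floored at 4 units and log2 transformed, and spots of a probe were averaged. Probes well above background on at least 4 of 5 arrays of a group were kept, 31111 of 56605. Names came from the RefSeq gene table (GRCm38.p6) through each probe's accession: 32994 probes had 1 symbol and 23611 were unnamed here. The scanner tables used here hold no gene name column, so the 8 genes were found through accessions. The kept probe with the highest mean signal stood for a gene. The comparison was a limma fit (3.58.1, R 4.3.3) over 15090 genes with Benjamini-Hochberg adjustment (threshold 0.05), checked on simulated data. Correlations used numpy 2.4.6 and an exact permutation. Each sample is 1 mouse.

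The 8 genes and the lists were chosen with earlier results of these data known. Named beside the 8 genes were, per list, genes past the threshold or else the 2 with the largest difference, plus Mlxipl, Pkm and Txnip, and the 8 genes most like the mean within-group deviation. Some genes that this rule names are not reported here. Alternatives were other normalization, background correction, floor, filter and probe rules, the deposited values, slide, column and replicate terms, array weights, other variance models, and the omission of single arrays.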

Additional observations from a re-analysis of the deposited data

Results flagged for a closer look

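Dixon's gap test for a single stray value was applied to the 5 arrays of each group, for the 8 genes and the 21 named genes of the lists, 58 groups in all. Chance alone flags about 1 in 20 such groups, and 3 were found. Khk was high in control replicate 4, at 8.08 with the next control at 7.73, a gap of 0.828 of the range. Slc2a2 was low in ethanol replicate 3, at 2.33 with the next ethanol liver at 2.65, a gap of 0.8 of the range. Acly was high in control replicate 4, at 4.81 with the next control at 4.09, a gap of 0.796 of the range. Control replicate 4 was also the highest control for Pklr, Gpi1 and Tkfc. The cause of these 3 values was not tested.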

How the results depend on the processing

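Over 26 alternatives the differences of Pklr, Tkfc, Khk, Pfkl, Pfkfb1 and Gpi1 kept their sign, and Slc2a2 was above 0 in 25 and Gckr in 14. The lower floor, the other filters, the replicate block and the trended robust fit left all 8 differences unchanged, so they add nothing to these counts. Averaging over the kept probes moved only Pfkfb1 and Gpi1. Within slide 1 the differences were 0.53 for Pklr, 0.31 for Khk, 0.11 for Pfkl and 0.29 for the median of the 8 genes. Within slide 3 they were 1.38 for Pklr, -0.11 for Slc2a2, 0.86 for Pfkl and 0.67 for the median. With the column as a covariate they were 1.23 for Pklr, 1.19 for Gpi1, 0.88 for Tkfc, 0.48 for Khk and 0.76 for Pfkl. In that setting Pfkfb1 was at 0.24, Slc2a2 at 0.12 and Gckr at -0.0071. Gckr was at -0.12 with quantile normalization, both on processed signals and after normexp. Leaving out 1 array at a time gave 0.92 to 1.12 for Pklr, 0.79 to 1.01 for Tkfc, 0.42 to 0.54 for Khk, -0.03 to 0.04 for Gckr, 0.12 to 0.25 for Slc2a2, 0.37 to 0.62 for Pfkl, 0.07 to 0.23 for Pfkfb1, 0.79 to 1.08 for Gpi1 and 0.40 to 0.54 for the median. The number of genes passing in limma was 3 of all genes tested. It was 8 with normexp and quantile normalization, 7 with normexp and the 75th percentile, 12 with the slide as a random block, 7 with a trended robust fit and 14 with array weights. It was 0 with no filter, with the replicate block, within slide 1 or 3, with a fixed slide block and with column on the slide as covariate, where 676 to 2443 genes had an unadjusted p under 0.05. Leaving out 1 array gave 0 to 7, with 0 without control replicate 4 or 5 or ethanol replicate 1, 1 without ethanol replicate 2 and 7 without ethanol replicate 4. Deviations of same-numbered arrays correlated at 0.32, 0.15, 0.31, 0.06 and -0.11 for numbers 1 to 5, above 0.1 in 3 of the 5, so whether the numbers pair the mice was not settled and they were not treated as pairs. The replicate block left the 8 differences as they were (0.95 for Gpi1), since the design is balanced. No gene of the lists passed under any alternative. For the within-group correlation 1 pair of the 8 genes passed with quantile normalization, and 1 with the slide removed. Removing the slide ties the deviations of arrays on the same slide, so the permutation within groups is not exact in that setting. The causes were not tested. Normexp used median spot signals. With normexp and the 75th percentile the differences of Pklr, Pfkl and Pfkfb1 were lower than in the main fit, at 0.86, 0.36 and 0.07. Those of Tkfc and Gpi1 were higher, at 0.95 and 1.01, and Khk was at 0.46 and Slc2a2 at 0.16. All 8 genes were well above background on every array, and the part of background in these shifts was not tested.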
